A study of Mus musculus with 9 samples.

Results

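The genes described are 10 members of the integrated stress response, taken by name from the known pathway: Atf4, Ddit3, Atf3, Trib3, Ppp1r15a, Chac1, Ddit4, Asns, Psat1 and Phgdh. They were chosen with earlier results of these data known, so an excess over the share of all genes is not independent of the data. All 10 are among the 12550 genes of the deposited table, and all 10 passed the filter on low values that left 12541 genes for testing. They were followed in C57Bl/6cJ mouse embryonic fibroblasts that were being reprogrammed to induced pluripotent stem cells. Every culture had been transfected with plasmids for the reprogramming factors (Oct4, Sox2, Klf4, c-Myc), and the cells grew in mouse embryonic stem cell medium with serum and leukemia inhibitory factor. The pretroSuper hairpin constructs targeted luciferase (the control arm), Hnrnpk, or Trp53cor1, the gene of lincRNA-p21. Each of the 3 arms was sampled on days 6, 9 and 12 with 1 library each, 9 libraries in all, and every library is labelled as merged replicates. Each target has 1 hairpin arm, and within it loss of the target and unrelated effects of the hairpin cannot be told apart.

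The integrated stress response lowers general protein synthesis. Stress-sensed kinases phosphorylate the translation factor eIF2, and the Atf4 message escapes this block through its upstream reading frames. Atf4 protein then turns on genes for amino acid synthesis and transport, together with a second layer of regulators such as Ddit3 (CHOP) and Atf3. Feedback genes such as Trib3 and Ppp1r15a dampen the response. Because Atf4 is controlled largely at translation, its RNA level does not measure its protein.

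Values are the authors' normalized signal, which is not known to be per length, so levels were compared between libraries and not between genes. Differences are on the scale of log2(signal + 10), fitted by limma with terms for arm and for day. The p-values measure how an arm's difference varied between the days. They hold no measure of how parallel cultures varied, because replicates were merged before deposition. The column totals differed by 0.0252%, the highest value was 118715 in every column, and the column medians ran from 816.5 to 827. The libraries thus had nearly the same distribution of values as deposited, so a difference is relative to the other genes of a library, a shift shared by most genes could not be seen, and centering on library medians tests little. The read depth is unknown. As a check of the labels, Hnrnpk fell under its own hairpin (-1.0, SE 0.16, limma adjusted p = 0.00824), and under the lincRNA-p21 hairpin Hnrnpk was at 0.13 (limma adjusted p = 0.738). Trp53cor1 was at -1.25 under its own hairpin (limma adjusted p = 0.0603), a difference that did not pass, and it fell under the Hnrnpk hairpin (-0.94, limma adjusted p = 0.00752). All 15 fibroblast markers examined were in the table and none was at 0 in any library.

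The binding element of Atf4 with its C/EBP partners, called CARE, gives a sequence to look for beside these values. Its core was searched as TGATGNAA on both strands in RefSeq promoter windows of 300 bases on GRCm38.p6, from 250 bases before to 50 after each start. All 10 genes had at least 1 window (11 windows, of which Psat1 has 2), and 4 genes held a match: Atf3, Trib3, Chac1 and Asns. Of all 32851 windows, 3.97% held the core, and of 9287 tested genes with a window 2.62% did. The 4 windows with a match are shown 5′ to 3′ on the strand of the gene, with the match in capitals. A match on the opposite strand reads as its reverse complement.
Atf3 (minus strand, chr1:191183284-191183583): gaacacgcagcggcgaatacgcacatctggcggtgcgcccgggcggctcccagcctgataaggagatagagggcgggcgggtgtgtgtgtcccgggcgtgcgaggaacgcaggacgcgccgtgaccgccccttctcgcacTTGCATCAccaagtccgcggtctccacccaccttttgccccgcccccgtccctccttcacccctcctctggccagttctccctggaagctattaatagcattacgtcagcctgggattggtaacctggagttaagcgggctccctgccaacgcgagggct
Trib3 (minus strand, chr2:152344011-152344310): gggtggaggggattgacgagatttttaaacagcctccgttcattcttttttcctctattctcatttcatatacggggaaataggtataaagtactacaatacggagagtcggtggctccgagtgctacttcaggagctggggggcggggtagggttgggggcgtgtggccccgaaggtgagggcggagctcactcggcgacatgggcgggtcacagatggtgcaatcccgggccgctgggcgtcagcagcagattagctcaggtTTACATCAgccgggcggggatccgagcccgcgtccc
Chac1 (plus strand, chr2:119350992-119351291): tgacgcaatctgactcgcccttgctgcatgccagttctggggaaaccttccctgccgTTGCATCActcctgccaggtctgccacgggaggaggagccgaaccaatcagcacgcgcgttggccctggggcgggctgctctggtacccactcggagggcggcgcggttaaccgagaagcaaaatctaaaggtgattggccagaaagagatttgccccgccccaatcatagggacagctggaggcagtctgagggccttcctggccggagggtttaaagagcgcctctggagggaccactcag
Asns (minus strand, chr6:7693160-7693459): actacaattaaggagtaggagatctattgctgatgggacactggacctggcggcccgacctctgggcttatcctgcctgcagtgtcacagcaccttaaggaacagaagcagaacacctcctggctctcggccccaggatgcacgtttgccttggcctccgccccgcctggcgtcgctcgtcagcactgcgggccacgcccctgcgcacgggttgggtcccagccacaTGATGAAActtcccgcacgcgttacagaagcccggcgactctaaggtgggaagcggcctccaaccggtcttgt

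**Figure D1:**
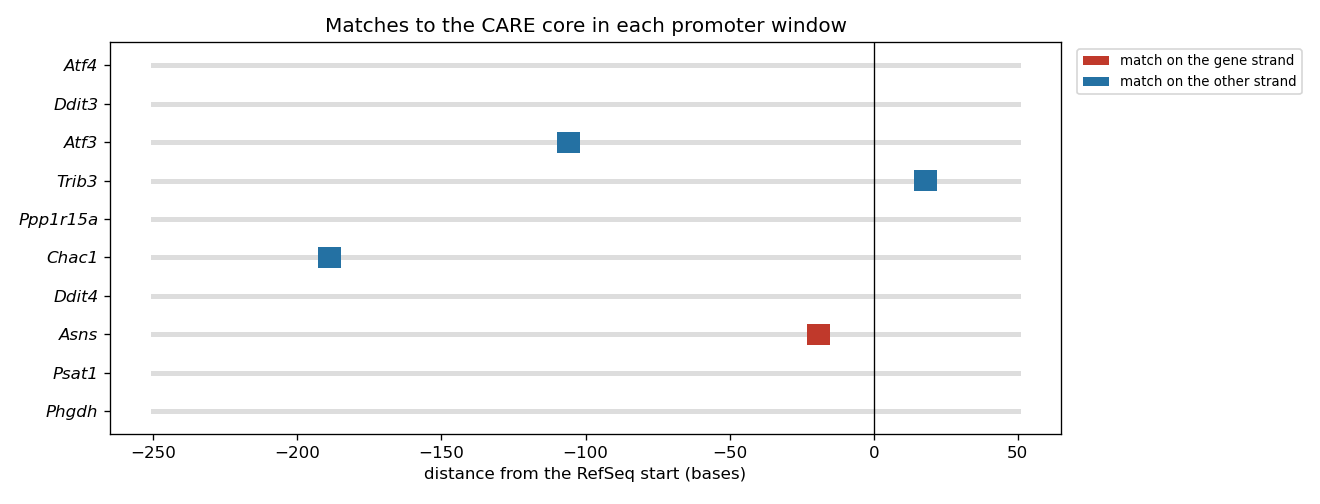
Position of each match to the CARE core along the promoter windows of the 10 genes, in bases from the RefSeq start (vertical line at 0), with gray bars for the windows searched and color for the strand. The matches begin at -110 in Atf3, -193 in Chac1, -23 in Asns and 14 in Trib3, and the rows of the other 6 genes are empty.

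The Atf3 window lies inside the span of the gene given below, at a RefSeq start downstream of the outermost annotated one. The Atf3 and Chac1 windows hold the same 8 letters, TGATGCAA when read on the opposite strand. Trib3 holds TGATGTAA there, and Asns holds TGATGAAA on the strand of the gene. A longer element of the unfolded protein response, the ER stress element, was searched on both strands and was in 0 of the 11 windows and in 0.119% of all windows. The absence of a match says only that these letters are not in the window searched.

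With the Hnrnpk hairpin, the transcription factors Atf4, Ddit3 and Atf3, the feedback genes Trib3 and Ppp1r15a, and the glutathione-degrading enzyme gene Chac1 were higher than in control cells. Asns, Psat1, Phgdh and Ddit4 did not pass. Of the 10 genes 6 rose and 0 fell (limma with Benjamini-Hochberg at 0.05): Trib3, Chac1, Atf3, Ddit3, Ppp1r15a and Atf4. The background was 5.58% of all tested genes higher and 6.94% lower, 12.5% in all. The median difference over the 10 genes was 0.46, beside 0.00 over all tested genes (0.0011 before rounding). At an unadjusted p under 0.05 there were 8 of the 10, against 29.4% of all genes. In 8 of the 10, every Hnrnpk library lay above every control library, which held for 6.87% of all genes. The reverse, with every Hnrnpk library below every control library, held for 0 of the 10 and for 8.52% of all genes. The 10 genes were chosen with earlier results known, so these shares describe the set and do not test it.

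**Figure D2:**
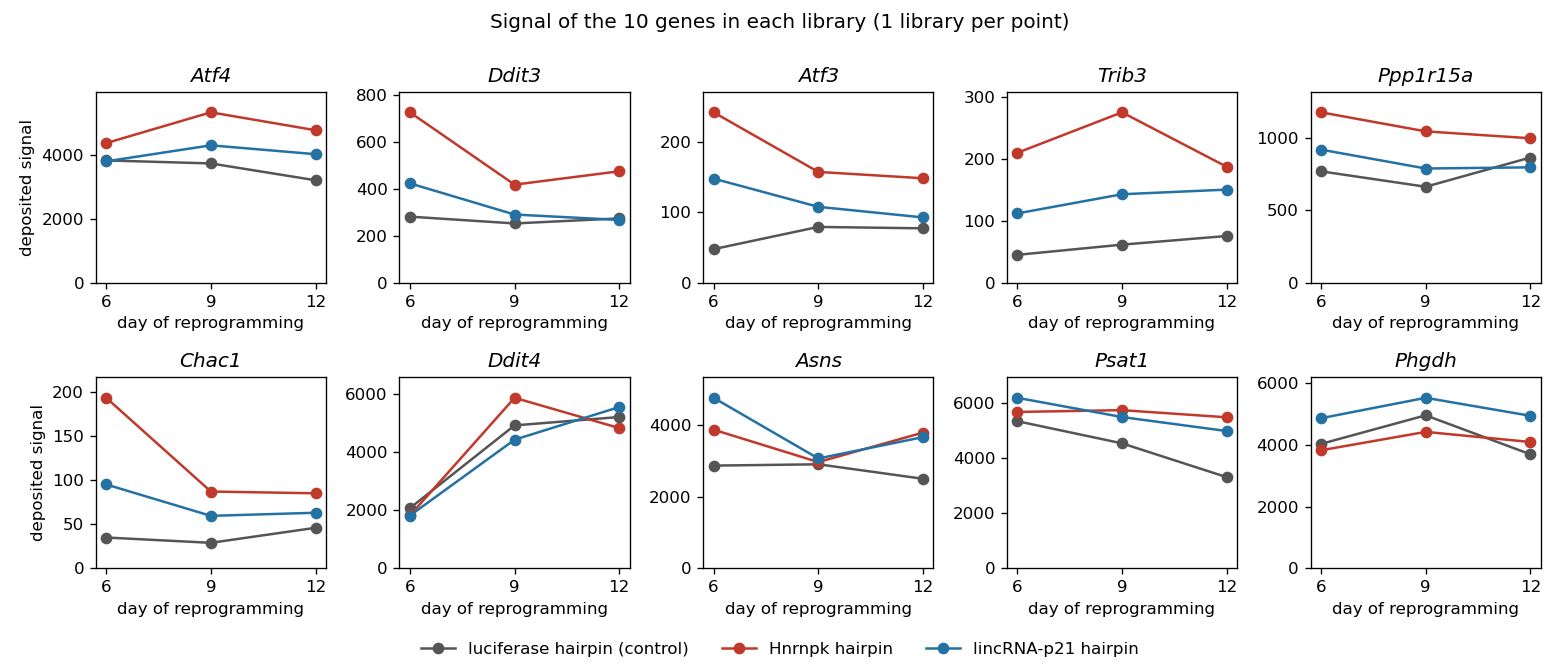
Deposited signal of each of the 10 genes (vertical axis from 0, a separate scale per gene) by day of reprogramming, 1 library per point, with lines joining the days of an arm. For Trib3 the control libraries span 45.5 to 76, those of lincRNA-p21 knockdown 112.5 to 151 and those of Hnrnpk knockdown 188 to 276, while the 3 arms of Ddit4 rise together from day 6 to day 9.

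Atf4, the transcription factor at the center of the response (ENSMUSG00000042406, GRCm38 chr15:80255184-80257541, plus strand), had a signal of 3829, 3734.5 and 3208.5 under the control hairpin, in the order of days 6, 9 and 12 used from here on. Under Hnrnpk knockdown it had 4370, 5331.5 and 4771.5. The groups did not overlap, and the gap was smallest on day 6. The rise was 1.34-fold (0.42, SE 0.11, limma adjusted p = 0.0372), and it passed in 8 of 18 other settings (limma adjusted p 0.00969 to 0.349). It was lost with only the arms compared in the fit, without day 9 or day 12, without the control or Hnrnpk library of either of those days, and without any 1 library of the lincRNA-p21 arm. With the lincRNA-p21 hairpin, Atf4 read 3800, 4300.5 and 4023.5, level with control on day 6 and above it later (0.17, SE 0.11, limma adjusted p = 0.518).

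Ddit3 (ENSMUSG00000025408, GRCm38 chr10:127290774-127296288, plus strand) encodes CHOP, a transcription factor of prolonged stress. Its control values were 283, 254 and 275.5, and its Hnrnpk values 728, 419.5 and 476.5. All Hnrnpk libraries were above control, with the highest on day 6 at 2.57 times the control value. Ddit3 rose 1.91-fold over the days (0.93, SE 0.15, limma adjusted p = 0.00731), and the call was lost in 1 of 18 other settings, without day 9 (limma adjusted p = 0.0811). Under lincRNA-p21 knockdown, the values were 425, 292 and 269, so that only day 6 stood well apart from control (0.24, SE 0.15, limma adjusted p = 0.504).

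Atf3 (ENSMUSG00000026628, GRCm38 chr1:191170296-191218039, minus strand), a stress-induced transcription factor that acts mostly as a repressor, read 48, 79.5 and 77.5 with the control hairpin and 242, 157.5 and 148.5 in the Hnrnpk arm. Its ratio to control was thus highest on day 6, at 5.04, and then 1.98 and 1.92. Atf3 rose (1.29, SE 0.26, limma adjusted p = 0.0154). The call was lost in 4 of 18 other settings: without the Hnrnpk library of day 9 (limma adjusted p = 0.0503), without day 9 (0.111), without day 12 (0.0531), and with only the arms compared in the fit (0.0657). Under the hairpin against lincRNA-p21, Atf3 read 148, 108 and 93, again highest on day 6 and above all control libraries (0.69, SE 0.26, limma adjusted p = 0.294).

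Trib3, a pseudokinase induced by Atf4 and CHOP that restrains Akt and Atf4 (ENSMUSG00000032715, GRCm38 chr2:152337422-152344032, minus strand), had the largest difference of the 10. It read 45.5, 62 and 76 with the control hairpin and 210.5, 276 and 188 in the Hnrnpk arm, where it was 4.63, 4.45 and 2.47 times the control value. Trib3 rose 3.31-fold with 10 added (1.73, SE 0.18, limma adjusted p = 0.00278) and ranked 38 of 12541 by p-value. The call was lost in 1 of 18 other settings, without day 9 (limma adjusted p = 0.0724), and the difference ranged from 1.30 to 1.99 over the settings. With the lincRNA-p21 hairpin, it read 112.5, 143.5 and 151, from 1.99 to 2.47 times control, with every library above every control library. That difference (1.05, SE 0.18) did not pass (limma adjusted p = 0.0974) and ranked 44 of 12541.

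Ppp1r15a (ENSMUSG00000040435, GRCm38 chr7:45522916-45526268, minus strand) encodes GADD34, which brings a phosphatase to eIF2 and so ends the translation block. It read 768, 662 and 863 with the control hairpin and 1174, 1043 and 995.5 in the Hnrnpk arm. The arms did not overlap, with the smallest gap on day 12. Ppp1r15a rose (0.49, SE 0.11, limma adjusted p = 0.0276), in 8 of 18 other settings as well (limma adjusted p 0.0186 to 0.32). The call was lost with only the arms compared in the fit, without any 1 day, without the control or Hnrnpk library of day 6 or day 9, and without the lincRNA-p21 library of day 9 or day 12. The lincRNA-p21 values of 917.5, 787.5 and 795.5 overlapped those of control (0.13, SE 0.11, limma adjusted p = 0.646).

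Chac1 (ENSMUSG00000027313, GRCm38 chr2:119351229-119354381, plus strand) encodes an enzyme that degrades glutathione. It read 35, 29 and 46 with the control hairpin and 193, 87 and 85 in the Hnrnpk arm, which is 5.51, 3 and 1.85 times control. Chac1 rose (1.42, SE 0.25, limma adjusted p = 0.0107). The call was lost in 3 of 18 other settings, without the control library of day 9 (limma adjusted p = 0.0543), without day 9 (0.123) and with only the arms compared in the fit (0.0632). Under lincRNA-p21 knockdown, it read 95, 59.5 and 63, above all control libraries (0.81, SE 0.25, limma adjusted p = 0.223). With values this close to the added 10, the size of the difference depends on that number. With 1 added the Hnrnpk difference of Chac1 was 1.62 and with 50 added 0.93. The low values of Atf3 and Trib3 share this limit, with 1.41 and 0.96 for Atf3 and 1.87 and 1.30 for Trib3.

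Of the amino acid synthesis genes among the 10, 0 passed in either arm by limma, with 2 (Asns and Psat1) at an unadjusted p under 0.05 in the Hnrnpk arm and 3 in the lincRNA-p21 arm. Asns (ENSMUSG00000029752, GRCm38 chr6:7675169-7693254, minus strand), which makes asparagine and is a classic Atf4 target, read 2864, 2900.5 and 2497.5 with the control hairpin and 3864, 2962 and 3783 in the Hnrnpk arm. On day 9 the arms were nearly level, and the difference of 0.35 (SE 0.14) did not pass (limma adjusted p = 0.135). Under the hairpin against lincRNA-p21, it read 4752, 3062.5 and 3657, above control on every day (0.45, SE 0.14, limma adjusted p = 0.223). Psat1, of the serine pathway (ENSMUSG00000024640, GRCm38 chr19:15904678-15947337, minus strand), went from 5335.5 to 4533 to 3308.5 in control cells while it read 5670.5, 5735.5 and 5477 in the Hnrnpk arm. The Psat1 difference was 0.38 (SE 0.13, limma adjusted p = 0.0863), and it passed without day 6 (0.53, limma adjusted p = 0.0214), without the control library of day 6 (0.49, limma adjusted p = 0.0354) and without the Hnrnpk library of day 6 (0.50, limma adjusted p = 0.0419). With the lincRNA-p21 hairpin, Psat1 read 6183, 5486 and 4979 (0.36, SE 0.13, limma adjusted p = 0.279).

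Phgdh (ENSMUSG00000053398, GRCm38 chr3:98313170-98339990, minus strand), the first enzyme of serine synthesis, read 4035, 4960.5 and 3698 with the control hairpin and 3828, 4424 and 4097 in the Hnrnpk arm. The ranges overlapped, with a difference of -0.03 and a 95% interval from -0.26 to 0.20 (limma adjusted p = 0.868). Under lincRNA-p21 knockdown, it read 4866.5, 5528 and 4945, above the control library of the same day on each day but not above all control libraries (0.28, SE 0.10, limma adjusted p = 0.279). Psat1 and Phgdh act in the same pathway, and in the Hnrnpk arm only Psat1 lay above control on all 3 days. The difference between these genes was not tested.

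Ddit4 (ENSMUSG00000020108, GRCm38 chr10:59949669-59951834, minus strand), also called REDD1, inhibits the growth kinase mTORC1 and answers to hypoxia and glucocorticoids as well as to Atf4. It read 2071.5, 4912.5 and 5200.5 with the control hairpin, 1819, 5860 and 4821 under Hnrnpk knockdown, and 1815, 4421 and 5542.5 under lincRNA-p21 knockdown. The arms overlapped, with differences from control of -0.01 (95% interval -0.31 to 0.28, limma adjusted p = 0.958) and -0.08 (95% interval -0.38 to 0.21, limma adjusted p = 0.8). The change over the days was the larger one. Ddit4 rose 2.64-fold from day 6 to day 9 (1.40, SE 0.13, limma adjusted p = 0.000205), in all 3 arms.

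**Figure D3:**
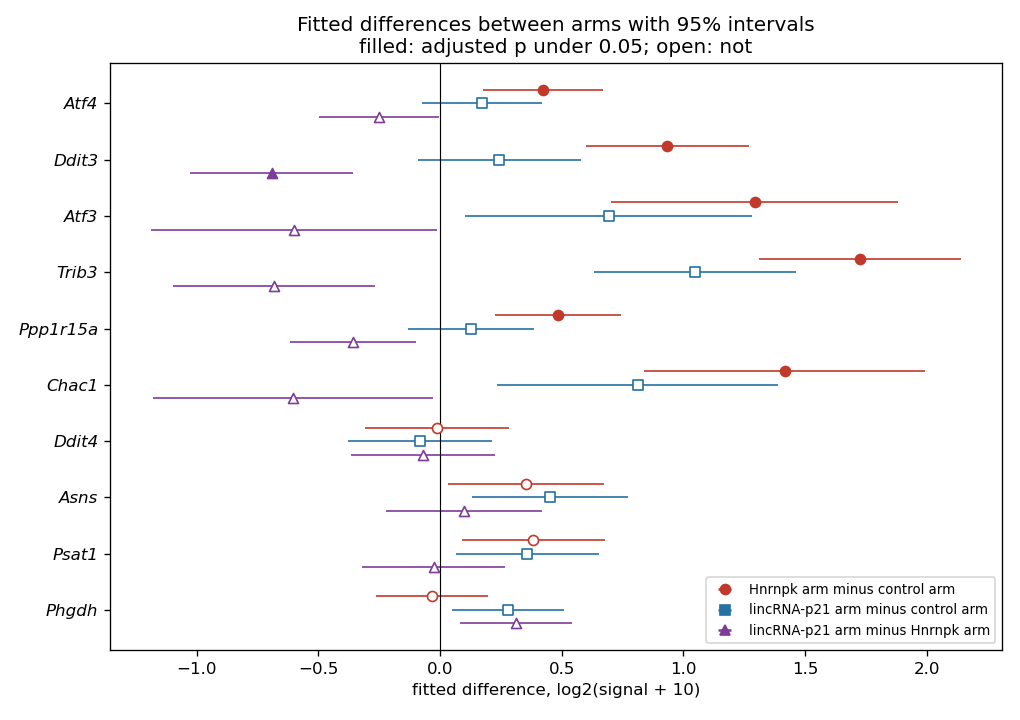
Fitted difference between arms for each of the 10 genes, on the log2(signal + 10) scale, with 95% intervals from limma. Filled symbols have an adjusted p under 0.05: 6 genes in the Hnrnpk arm against control, 0 in the lincRNA-p21 arm against control, and Ddit3 between the knockdown arms.

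With the lincRNA-p21 hairpin, 0 of the 10 genes passed in either direction (limma), against a background of 0.00797% higher and 0% lower among all tested genes. At an unadjusted p under 0.05 there were 6 of the 10 (Trib3, Asns, Chac1, Phgdh, Psat1 and Atf3), all above control, against 13.8% of all genes. The median difference over the 10 was 0.32, beside 0.02 over all tested genes. In 4 genes, Trib3, Chac1, Atf3 and Asns, every lincRNA-p21 library lay above every control library, which held for 4.31% of all genes. The reverse held for 0 of the 10 and for 4.21% of all genes. Both knockdown arms were compared with the same 3 control libraries, so their differences from control are not independent of each other. Some of the lincRNA-p21 differences also depended on single libraries. Without the control library of day 6, Atf3 was at 0.30 and Ddit3 at 0.06, and without that of day 9 Ppp1r15a was at 0.06. Over all 9 libraries left out in turn, the ranges were 0.30 to 0.92 for Atf3, 0.06 to 0.35 for Ddit3, 0.06 to 0.26 for Ppp1r15a, 0.10 to 0.28 for Atf4 and 0.52 to 1.08 for Chac1. Trib3 stayed at 0.96 to 1.21, Asns at 0.33 to 0.63, Psat1 at 0.22 to 0.47 and Phgdh at 0.20 to 0.35. Ddit4 ranged from -0.19 to 0.02.

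The arms were compared with each other directly. Of the 10 genes 1, Ddit3, was lower in the lincRNA-p21 arm than in the Hnrnpk arm (-0.69, SE 0.15, limma adjusted p = 0.0445) and 0 were higher, against 1.56% lower and 1.7% higher among all tested genes, 3.26% in all. That call passed in 9 of 18 other settings (limma adjusted p 0.0108 to 0.326) and was lost without day 9 or day 12, without the control library of day 9, and without any 1 library of either knockdown arm. Trib3 was at -0.68 (SE 0.18, limma adjusted p = 0.0866), Chac1 at -0.60 (SE 0.25, limma adjusted p = 0.243), Atf3 at -0.60 (SE 0.26, limma adjusted p = 0.255) and Ppp1r15a at -0.36 (SE 0.11, limma adjusted p = 0.133). Atf3 passed with only these arms in the fit (-0.60, limma adjusted p = 0.0481) and without the control library of day 6 (0.0272), and without 1 library its difference ranged from -0.77 to -0.38 and that of Chac1 from -0.82 to -0.33. Phgdh was at 0.31 (SE 0.10, limma adjusted p = 0.137). For Atf4, Atf3, Trib3 and Ppp1r15a every Hnrnpk library lay above every lincRNA-p21 library, 4 of 10 genes, beside 4.78% of all genes. For Asns the interval of the difference between the knockdown arms was -0.22 to 0.42, and for Psat1 -0.32 to 0.27.

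The differences from control were also read day by day, each from 1 library per arm and so without a test. On day 6, 4 genes were at least 2-fold higher in the Hnrnpk arm than in control with 10 added (Chac1, Atf3, Trib3 and Ddit3), beside 4.53% of all genes, and 0 were 2-fold lower, beside 2.08%. On day 9 there were 2 (Trib3 and Chac1), beside 2.54%, and on day 12 there was 1 (Trib3), beside 3.76%. On those days 0 were 2-fold lower, beside 1.33% and 2.46% of all genes. Under the hairpin against lincRNA-p21, there were 3 on day 6 (Atf3, Chac1 and Trib3), 1 on day 9 (Trib3) and 0 on day 12, beside 1.66%, 0.837% and 1.2% of all genes. None of the 10 was 2-fold lower there on days 6, 9 or 12, beside 0.773%, 0.239% and 0.271%. The slopes of the Hnrnpk difference per 3 days were -0.71 for Chac1 (SE 0.18, limma adjusted p = 0.0526), -0.63 for Atf3 (SE 0.20, limma adjusted p = 0.0802) and 0.32 for Psat1 (SE 0.10, limma adjusted p = 0.0841). None of the 10 genes passed this test in either direction, against 5.06% of all genes higher and 4.3% lower by limma, 9.35% in all. At an unadjusted p under 0.05 there were 4 of the 10, near the share of 30.4% among all genes. With the lincRNA-p21 hairpin, 0 of 10 passed by limma, beside 0% of all genes. There 1 of 10 had an unadjusted p under 0.05, beside 16.8% of all genes. The slope of Chac1 in the Hnrnpk arm passed with 50 added (-0.51, limma adjusted p = 0.0464) and without the intensity trend (-0.71, limma adjusted p = 0.0379).

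Over the days, Ddit4 and Ddit3 passed with all libraries in the fit, and other members passed in some settings. From day 6 to day 9, Ddit4 rose and Ddit3 fell (-0.49, SE 0.15, limma adjusted p = 0.0294), 1 of 10 in each direction, against 18.9% higher and 21% lower among all tested genes, 39.9% in all. The Ddit3 changes over the days are averages over the 3 arms. Control values of Ddit3 stayed nearly level, at 283, 254 and 275.5 on days 6, 9 and 12. Hnrnpk values were 728, 419.5 and 476.5, and lincRNA-p21 values 425, 292 and 269. For Ddit3 the slope of the Hnrnpk difference (-0.28, limma adjusted p = 0.192) did not pass. That of the lincRNA-p21 difference (-0.30, limma adjusted p = 0.301) did not pass either. The Ddit3 call from day 6 to day 9 passed in 10 of 17 other settings. It was lost without the Hnrnpk arm (-0.34, limma adjusted p = 0.178) or the lincRNA-p21 arm (-0.47, limma adjusted p = 0.173), without the Hnrnpk or lincRNA-p21 library of day 6 or day 9, and without the control library of day 9. From day 6 to day 12 the same 2 genes passed, Ddit4 higher (1.44, SE 0.13, limma adjusted p = 7.29e-05) and Ddit3 lower (-0.43, SE 0.15, limma adjusted p = 0.0396), against 22.3% and 27% of all genes, 49.3% in all. This Ddit3 call passed in 9 of 17 other settings, and was lost without either knockdown arm, without the Hnrnpk library of day 6 or day 12, without any 1 library of the lincRNA-p21 arm, and without the control library of day 9. From day 9 to day 12, 0 of 10 passed by limma, against 0.526% higher and 0.128% lower among all genes. At an unadjusted p under 0.05 there was 1 of 10 (Phgdh), against 14.1% of all genes. Psat1 was at -0.35 from day 6 to day 12 (SE 0.13, limma adjusted p = 0.0501), with 5335.5 on day 6 and 3308.5 on day 12 under the control hairpin. It passed without the Hnrnpk arm (-0.50, limma adjusted p = 0.0269) and without the Hnrnpk library of day 6 (0.0203) or day 12 (0.0284). Chac1 passed as lower on day 9 than on day 6 without the control arm (-0.83, limma adjusted p = 0.0232) and without the control library of day 6 (0.0116) or day 12 (0.0473). It also passed from day 6 to day 12 without the control arm (-0.81, limma adjusted p = 0.0196) or the same libraries (0.025 and 0.0494). Without the control arm or its day 6 library, Atf3 passed as lower on day 9 (-0.51 and -0.52, limma adjusted p = 0.041 and 0.0192) and on day 12 (-0.64 and -0.63, limma adjusted p = 0.0144 and 0.00769). Asns passed from day 6 to day 9 without the control arm (-0.51, limma adjusted p = 0.0192) or its day 9 library (0.0291). Trib3 passed as higher on day 12 than on day 6 without the Hnrnpk library of day 12 (0.52, limma adjusted p = 0.0355).

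Because Ddit4 is also known as a hypoxia gene, that group was read beside it. Beside 18.9% higher and 21% lower among all genes, 10 of 11 hypoxia genes tested rose from day 6 to day 9 and 0 fell (median 1.49). They were led by Ndufa4l2 (2.17, SE 0.43, limma adjusted p = 0.00516), the glucose transporter gene Slc2a1 (2.14, SE 0.19, limma adjusted p = 0.000174), the mitophagy gene Bnip3 (1.83, SE 0.21, limma adjusted p = 0.000457) and the oxygen sensor gene Egln3 (1.75, SE 0.15, limma adjusted p = 0.000132). In the Hnrnpk arm 4 of these 11 fell and 0 rose (median -0.54), against 6.94% lower and 5.58% higher among all tested genes. The largest fall was that of Ndufa4l2 (-1.68, SE 0.43, limma adjusted p = 0.0391). The others were Egln3 (-1.21, SE 0.15, limma adjusted p = 0.00368), Pdk1, which restrains entry of pyruvate into mitochondria (-1.07, SE 0.25, limma adjusted p = 0.0263), and the angiogenic factor gene Vegfa (-0.72, SE 0.13, limma adjusted p = 0.0106). Between the Hnrnpk and control arms Ddit4 was at -0.01. With the lincRNA-p21 hairpin 0 of the 11 hypoxia genes passed by limma, with a median of -0.38. At an unadjusted p under 0.05 there were 5 of 11, beside 13.8% of all genes. Between the knockdown arms there were 0 of 11 at that threshold, beside 19.0% of all genes. The lower hypoxia genes are thus not particular to the Hnrnpk arm.

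Upstream of Atf4, the eIF2 genes were read in the Hnrnpk arm. Among 15 genes for the eIF2 kinases, eIF2 and eIF2B subunits and their regulators, 0 rose and 0 fell by limma. Their median was 0.18. With 12.5% of all tested genes called in either direction, a count of 0 in a list of this size is near the background. At an unadjusted p under 0.05 there was 1 of 15, below the share of 29.4% among all genes. Eif2ak3, the kinase PERK of the endoplasmic reticulum, read 1051, 924 and 1067.5 with the control hairpin and 1272.5, 1021 and 873 in the Hnrnpk arm. Eif2ak4, the amino acid sensor GCN2, was at -0.27 (SE 0.13, limma adjusted p = 0.205), and Eif2b2, of the eIF2 exchange factor, at 0.32 (SE 0.09, limma adjusted p = 0.051). Eif2ak3 was named after its values were seen. Kinase activity is set by phosphorylation, which these data do not measure.

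**Figure D4:**
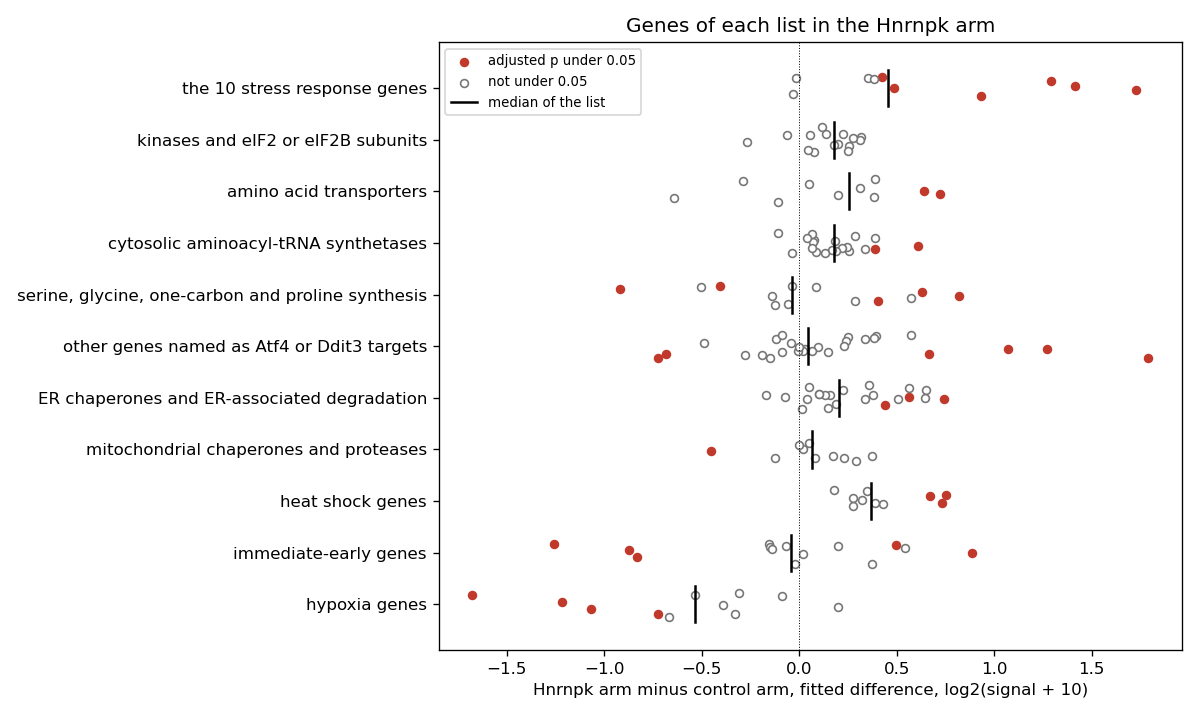
Fitted difference between the Hnrnpk and control arms on the log2(signal + 10) scale for the 10 stress response genes and the genes of 10 further lists, 1 point per gene, with the median of each list as a vertical bar. Red points have an adjusted p under 0.05: the 10 genes have a median of 0.46, the heat shock genes 0.37 and the hypoxia genes -0.54.

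Among downstream genes of the pathway, some rose with the Hnrnpk hairpin and some fell. For this and all following lists in the Hnrnpk arm, cell markers included, the background was 5.58% of all tested genes higher and 6.94% lower. In the list of 28 other genes named as Atf4 or Ddit3 targets, 4 rose and 2 fell (median 0.05). Gdf15, a stress cytokine, rose (1.79, SE 0.23, limma adjusted p = 0.00407), from 77, 38.5 and 28.5 in control cells to 461, 137 and 87. Pmaip1, the pro-apoptotic Noxa (1.27, SE 0.15, limma adjusted p = 0.00368), Nupr1, a stress-induced chromatin protein (1.07, SE 0.28, limma adjusted p = 0.0407), and Atf5, an Atf4-related factor (0.67, SE 0.09, limma adjusted p = 0.00529), rose as well. Vegfa, given above, fell, and so did Avil, an actin-binding protein (-0.68, SE 0.17, limma adjusted p = 0.0376). Atf5 and Avil were named after their values were seen. Gdf15 and Pmaip1 are also targets of p53. Under lincRNA-p21 knockdown, Gdf15 read 141, 36 and 32.5, above the control library of the same day on days 6 and 12 and below it on day 9 (0.29, limma adjusted p = 0.61).

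In the list of 13 further genes of serine, glycine, one-carbon and proline synthesis, 3 rose and 2 fell (median -0.04). Mthfd2, of the mitochondrial folate pathway (0.82, SE 0.16, limma adjusted p = 0.0133), and Psph, the last enzyme of serine synthesis (0.63, SE 0.11, limma adjusted p = 0.00995), rose. Mthfd2 went from 859.5, 603.5 and 449.5 in control cells to 1082, 1174 and 1030. The proline enzymes went the other way. Pycr1, the last step of proline synthesis, fell (-0.92, SE 0.13, limma adjusted p = 0.00526), from 313, 553 and 586 to 139, 280 and 362. Aldh18a1, the first step, fell too (-0.41, SE 0.10, limma adjusted p = 0.0318), and Got1, an aspartate aminotransferase, rose (0.40, SE 0.10, limma adjusted p = 0.0288). These last 2 were named after their values were seen.

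Of 10 amino acid transporters 2 rose and 0 fell (median 0.25): the glycine transporter Slc6a9 (0.72, SE 0.16, limma adjusted p = 0.0217) and the cationic amino acid transporter Slc7a3 (0.64, SE 0.13, limma adjusted p = 0.018). Slc43a1, a neutral amino acid transporter, was at -0.64 (limma adjusted p = 0.134) and Slc7a5, which carries large neutral amino acids, at 0.39 (limma adjusted p = 0.104). Of 20 cytosolic aminoacyl-tRNA synthetases, which charge tRNAs, 2 rose and 0 fell (median 0.18). Aars rose (0.61, SE 0.10, limma adjusted p = 0.00731), from 4663.5, 4209 and 3532 to 6676, 6263 and 5878, and so did Rars (0.39, SE 0.10, limma adjusted p = 0.0363). Under the hairpin against lincRNA-p21, Aars stood at 6368.5, 5552 and 5160.5 (0.46, limma adjusted p = 0.113). The CARE core was in the promoter window of 5 of 12 synthetase genes with a window, Aars, Gars, Iars, Tars and Yars, and in 7 of 21 of the other named targets. It was in 2 of 7 transporter genes, 2 of 11 of the serine to proline synthesis list, 1 of 12 of the kinase and eIF2 list, and 0 of 18 of the endoplasmic reticulum list, beside 2.62% of tested genes with a window. The pathway lists were drawn from genes already tied to Atf4, so a share above that of all genes was likely in advance and is no test.

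Other stress pathways were read beside the 10 genes. Of 22 genes for chaperones and degradation in the endoplasmic reticulum, which answer mainly to Atf6 and Xbp1, 3 rose and 0 fell (median 0.21). Creld2 (0.74, SE 0.13, limma adjusted p = 0.00907) and Hyou1 (0.56, SE 0.12, limma adjusted p = 0.0227) rose, with Dnajb11 (0.44, SE 0.10, limma adjusted p = 0.0295) as the third, while Manf was at 0.65 (limma adjusted p = 0.0528). The chaperone BiP, Hspa5, read 11394, 24068 and 18931 with the control hairpin and 19315, 27812 and 27812 in the Hnrnpk arm (0.51, limma adjusted p = 0.0594). Hyou1, Dnajb11 and Hspa5 were named after their values were seen. Of 10 heat shock genes 3 rose and 0 fell (median 0.37), Hsph1 (0.75, SE 0.13, limma adjusted p = 0.00924), Hspb1 (0.73, limma adjusted p = 0.0263) and Hspa1b (0.67, limma adjusted p = 0.0278). Hspa1b has the near-identical copy Hspa1a, so its value is uncertain. Of 10 mitochondrial chaperones and proteases 0 rose and 1 fell, Trap1 (-0.45, SE 0.10, limma adjusted p = 0.024). At an unadjusted p under 0.05 there were 10 of 22 endoplasmic reticulum genes, 8 of 10 heat shock genes and 2 of 10 mitochondrial genes. The share among all genes was 29.4%.

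Of 14 immediate-early genes, a class that includes genes induced by handling of cells, 2 rose and 3 fell (median -0.04). Dusp1 (0.88, SE 0.19, limma adjusted p = 0.0201) and Jun (0.50, SE 0.13, limma adjusted p = 0.0425) rose, and Egr2 (-1.26, SE 0.23, limma adjusted p = 0.0108), Myc (-0.87, SE 0.17, limma adjusted p = 0.0148) and Egr1 (-0.83, SE 0.14, limma adjusted p = 0.00872) fell. Jun was named after its values were seen. The Myc value could include transcripts of the plasmid. With the lincRNA-p21 hairpin, 0 genes of these pathway and stress lists passed by limma, with 0 to 6 per list at an unadjusted p under 0.05.

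Markers of other cells moved with the Hnrnpk arm, in which the 10 genes were read as a whole culture. In bulk RNA, a change in the share of a cell type and a change of RNA per cell cannot be told apart. Of 13 pluripotent cell markers 8 rose in the Hnrnpk arm, and their summed signal ran from 1511.5 to 20142 in that arm, from 1130.5 to 5055 with the control hairpin and from 1000 to 12184.5 in the lincRNA-p21 arm. At most 2 of these were at 0 in a library, all on day 6. Of 10 keratinocyte markers 8 rose, with sums of 9394.5 to 40657 in the Hnrnpk arm, 6985.5 to 38554.5 with the control hairpin and 5130 to 25820.5 in the lincRNA-p21 arm. Of 15 fibroblast markers 0 passed by limma, with 3 at an unadjusted p under 0.05 and sums of 184388.5 to 303913 and 242947.5 to 258774 in the Hnrnpk and control arms. Of 10 macrophage markers 2 were in the table and of 8 endothelial markers 3, and 0 of these passed by limma, with 1 and 0 at an unadjusted p under 0.05. The lincRNA-p21 fibroblast sums were 239298.5 to 310973. On day 6, Chac1, Atf3, Trib3 and Ddit3 had their largest ratios to control in both knockdown arms. Both ratios share 1 control library, in which Trib3 (45.5) and Atf3 (48) had their lowest values. The signal of Trib3 itself was highest on day 9 in the Hnrnpk arm (276) and on day 12 in the lincRNA-p21 arm (151). The Hnrnpk library of day 6 was above control for fibroblast (303913 against 242947.5), keratinocyte (9394.5 against 6985.5) and pluripotent markers (1511.5 against 1130.5). The lincRNA-p21 library of day 6 was above control for fibroblast markers (310973) and below it for keratinocyte (5130) and pluripotent markers (1000). On days 9 and 12 the Hnrnpk fibroblast sum was below control (184388.5 against 254564 and 217036 against 258774), and its other 2 sums were above control. The keratinocyte sums of day 12 were close (40657 against 38554.5), while the median fitted difference of those markers was 1.03. A sum is weighted toward markers of high signal, and the signal is not known to be per length. The sums therefore do not measure the share of a cell type. The part of these cell types in the values of the 10 genes was not tested.

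The patterns of the 10 genes over the libraries were compared in pairs. With each day's mean removed, the 10 pairs among Atf3, Ddit3, Trib3, Chac1 and Ppp1r15a had Pearson's r from 0.87 to 0.97 over the 9 libraries. The 9 pairs with Ddit4 had r from -0.36 to 0.18. Asns and Psat1 had r = 0.78 with each other, and Asns and Phgdh 0.62. Atf4 was closest to Trib3 (0.84) and Psat1 (0.83). These are descriptions over 9 points that share arms, days and the authors' scaling, and Atf3, Ddit3, Trib3, Chac1 and Ppp1r15a were set together after their values were seen.

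**Figure D5:**
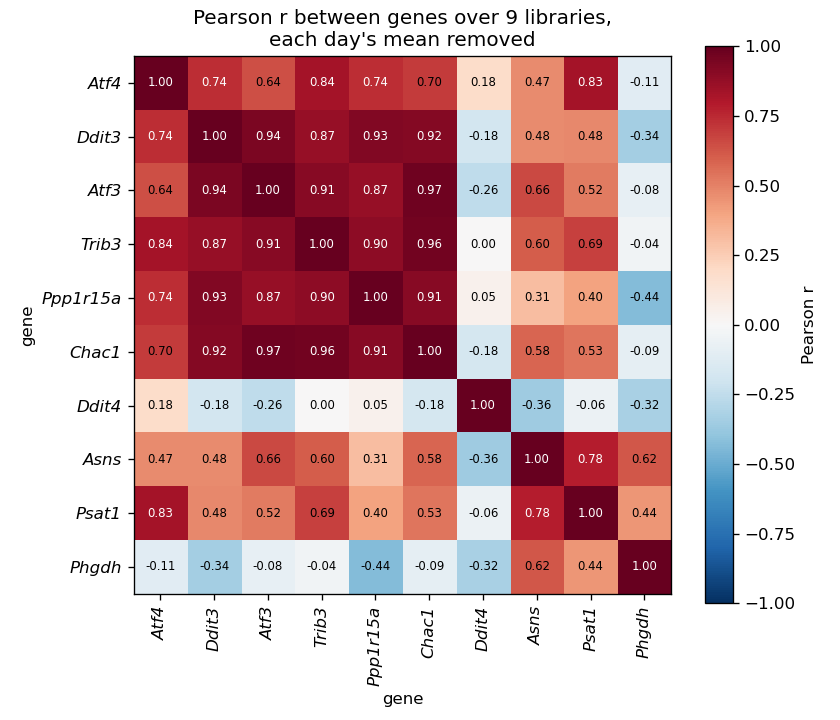
Pearson's r between the 10 genes over the 9 libraries, on log2(signal + 10) with each day's mean removed, from -1 (blue) to 1 (red). Atf3, Ddit3, Trib3, Ppp1r15a and Chac1 form a block with r from 0.87 to 0.97, and the row of Ddit4 holds values from -0.36 to 0.18.

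Over all tested genes, those most like a member in level over the 9 libraries were taken by Pearson's r. For Trib3 they were Slc23a2 (0.98), Slc30a1 (0.97) and Rap2c (0.96), and for Ddit3 Aqp5 (0.98), Flnc (0.98) and Elmod1 (0.98). For Chac1 they were Esm1 (0.97), Ppp1r2 (0.97) and Mdm2 (0.97), and for Atf3 Ino80c (0.97), Kpna1 (0.97) and Cxcr6 (0.97). For Ddit4 they were Atf7ip2 (0.996), Pim3 (0.99) and Shc1 (0.99). None of the 10 genes was among the 3 most alike of another. Day means were not removed here, unlike for the pairs. The named genes are the highest of 12541 over 9 libraries, where a high r can come from the selection alone. They show likeness of pattern, and no link between the genes was tested.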

How the data were processed

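The deposited table holds, per the labels, 1 column per arm and day of merged replicates, as a signal that the authors had normalized. RSEM 1.2.12, Bowtie 1.0.1 and mm10 are named in the submitters' processing notes, without their roles. How they scaled it is not stated in those notes or the labels. Values move in steps of 0.5 and 62.8% are whole, so they are not counts and the depth is unknown. Genes with a mean of at least 20 were kept, and 10 was added before log2. The model, fitted by limma 3.58.1 under R 4.3.3, had additive terms for arm and day (4 residual degrees of freedom, 8.46 in total), an intensity trend and Benjamini-Hochberg adjustment at 0.05 over all 12541 genes. Slopes used 2 residual degrees of freedom. On simulated data for the Hnrnpk comparison over 12541 genes, 73% of changes of 1 and 97.3% of changes of 2 on the log2 scale were recovered, with 3.74% and 6.86% of calls false. The 600 changes of each size were pooled over repeated simulated tables, each of which held fewer. Changes were equal on all days, with independent normal noise per gene. In the data more genes were called and differences varied between days, so these rates may not hold there. Settings varied were the added number, the filter, the trend, the centering, the arms in the fit, and leaving out each library, day or arm. Members and gene lists were chosen with earlier results of these data known. The genes named were all 10 members, up to 4 genes of each list with the largest difference, the hairpin targets and the 3 genes most like a member, with exceptions marked. The 15 lists were matched by symbol, and coordinates come from GENCODE M21 on GRCm38, the assembly of mm10, and RefSeq on GRCm38.p6, which held all 10 members.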

Additional observations from a re-analysis of the deposited data

How the results depend on the processing

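No paired analysis was possible because the labels give no replicate numbers and each arm and day has 1 library, with day already in the model. Of 1150 values of the 10 genes under other settings, 1029 kept direction and side of the threshold, 53 no longer passed, 23 newly passed and 45 changed sign. The cause was not tested. Counts over all genes moved most. For Hnrnpk against control, 1570 genes became 3001, 25 and 367 without days 6, 9 and 12, 330 with only these arms in the fit, and 559 to 2045 without 1 library. For lincRNA-p21 against control, 1 gene became 0 with 50 added, 13 without the intensity trend, 175 without day 6, 0 without day 9, day 12 or the Hnrnpk arm (limma, with 618, 1142 and 1964 at an unadjusted p under 0.05), and 0 to 92 without 1 library. Between the knockdown arms, 409 became 649 without day 6, 0 without day 9 or day 12 (limma, with 1098 and 1654 at an unadjusted p under 0.05), 646 without control, and 4 to 959 without 1 library. Without the lincRNA-p21 arm, 5008 calls from day 6 to 9 became 1778 and 6181 from day 6 to 12 became 3073, and without 1 library the first count was 3062 to 5605. The 82 calls from day 9 to 12 became 50 with 1 added, 2, 11 and 0 without the control, Hnrnpk or lincRNA-p21 arm (limma, with 600 at an unadjusted p under 0.05 in the last), and 1 to 421 without 1 library.
None of the differences that changed sign passed with all libraries in the fit, but Atf3 from day 6 to 9 passed at -0.5228 without the control library of day 6 (limma adjusted p = 0.0192) and without the control arm (0.041). For Hnrnpk against control, Ddit4 was 0.0724 and 0.0337 without day 6 or day 12 and -0.165 to 0.0774 without 1 library, and Phgdh was 0.0358 without day 9 and -0.1099 to 0.0337. Ddit4 under lincRNA-p21 knockdown was -0.1945 to 0.018 without 1 library. Between the knockdown arms, Asns was -4e-04 without day 6 and -0.0199 to 0.2051 without 1 library, Ddit4 0.0988 without day 9 and -0.1806 to 0.0817, and Psat1 0.0303 without day 12 and -0.1372 to 0.0877. From day 6 to 9, Atf3 was 0.1023 and 0.0183 without the Hnrnpk or lincRNA-p21 arm and -0.5228 to 0.0966 without 1 library. From day 6 to 12, Phgdh was 0.0042 centered on library medians, 0.0604 without the control arm and -0.0566 to 0.0773 without 1 library, and Atf4 0.1044 without the control arm and -0.0865 to 0.0893. From day 9 to 12, Ppp1r15a was -0.0261 without the control arm and -0.0231 to 0.1884 without 1 library, Ddit3 -7e-04 and Trib3 0.1626 without the Hnrnpk arm, and Ddit4 -0.0995 without the lincRNA-p21 arm. Without 1 library these last 3 were -0.0511 to 0.1565, -0.235 to 0.1585 and -0.0691 to 0.1932, Atf3 was -0.3264 to 0.0681 and Chac1 -0.0836 to 0.4072.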
